A study of Mus musculus with 48 samples.

Results

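The mitochondrial ribosomal protein genes were followed through 48 hourly samples of forskolin-treated NIH3T3 cells. They were chosen as the probe sets whose platform gene symbol was Mrpl or Mrps followed by a number, and each gene was read from its brightest probe set. This gave 76 genes, 47 named Mrpl and 29 named Mrps, of 18193 genes with a symbol of their own, and it used 156 probe sets of 45037. Several further probe sets carried another gene's symbol beside an Mrpl or Mrps symbol and were not used, so that Mrpl30 and Mrpl53 are not described. NIH3T3 is an established line of mouse embryonic fibroblasts. The cells had been grown to confluence, treated once with forskolin, an activator of adenylyl cyclase that brings the clocks of the single cells into step, and collected every hour on separate arrays. The second day covers hours 44 to 67 after forskolin and the first day hours 20 to 43, with 24 arrays in each. All cells had received forskolin, no untreated culture was measured, and each hour was 1 array, so that p-values measure the scatter of single arrays about a fitted course. In a bulk sample, fewer cells of a type and less RNA per cell cannot be told apart.

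The mitochondrial ribosome translates the few proteins that mitochondrial DNA encodes, all of them parts of the respiratory chain and the ATP synthase. Its RNAs come from mitochondrial DNA, whereas all of its proteins are encoded in the nucleus, made in the cytosol and imported. Mrpl proteins are named for the large subunit, where peptide bonds are formed and the new chain leaves, and Mrps proteins for the small subunit, which reads the messenger RNA. The names are not exact: the proteins of Mrps30 and Mrps18a sit in the large subunit, Mrpl58 is the release factor ICT1, and the Mrps36 protein belongs to the 2-oxoglutarate dehydrogenase complex and not to the ribosome.

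Values are log2 probe set intensities, which are compared within a gene only. Mean values of the 76 genes lay above 12.3, against a median of 6.67 over all probe sets. The 8 fibroblast markers lay between 16.4 and 19.01, and the epithelial and endothelial markers between 5.44 and 5.63. Of 4 macrophage markers 1 was above that median, Cd68 at 10.4, and of the adipocyte markers Fabp4 was at 15.8 and Adipoq at 5.39. RNA quality differed between the arrays. The 3′ probe set of β-actin exceeded the 5′ one by over 1.4 log2 units on 10 arrays, 3 of the second day (hours 45, 46 and 67) and 7 of the first (hours 20, 22, 24, 36, 38, 40 and 43). The largest differences were 2.42 at hour 36, 2.33 at hour 20 and 2.22 at hour 45. On the arrays of hours 52 to 55 the spiked hybridisation control BioB was high.

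To ask whether expression drifted over the course, a linear slope was fitted with limma beside a 24 h wave and adjusted over all probe sets at 0.05. Of the 76 genes, 15 rose (19.7%) and 19 fell (25.0%), whereas 42 did not pass. The shares over all probe sets were 14.2% rising and 16.2% falling, and among the 22518 probe sets above the median level, where all 76 genes lay, 26.4% rising and 26.4% falling. The gene group therefore held no larger share of calls than the probe sets above the median level, and it had both directions. Those probe sets had a median level of 13.2, below most of the 76 genes, and brightness was not matched more closely. Slopes were small. Their median size was 0.06 log2 per 24 h, against 0.13 among probe sets above the median level, and they ran between -0.21 and 0.33 with a median of 0.02. The genes that rose were Mrpl22, Mrpl23, Mrpl24, Mrpl27, Mrpl34, Mrpl42, Mrpl45, Mrpl48, Mrps5, Mrps6, Mrps12, Mrps18a, Mrps31, Mrps33 and Mrps36. The genes that fell were Mrpl9, Mrpl10, Mrpl12, Mrpl13, Mrpl17, Mrpl32, Mrpl39, Mrpl44, Mrpl46, Mrpl50, Mrpl54, Mrps2, Mrps7, Mrps15, Mrps22, Mrps27, Mrps28, Mrps30 and Mrps35.

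**Figure D1:**
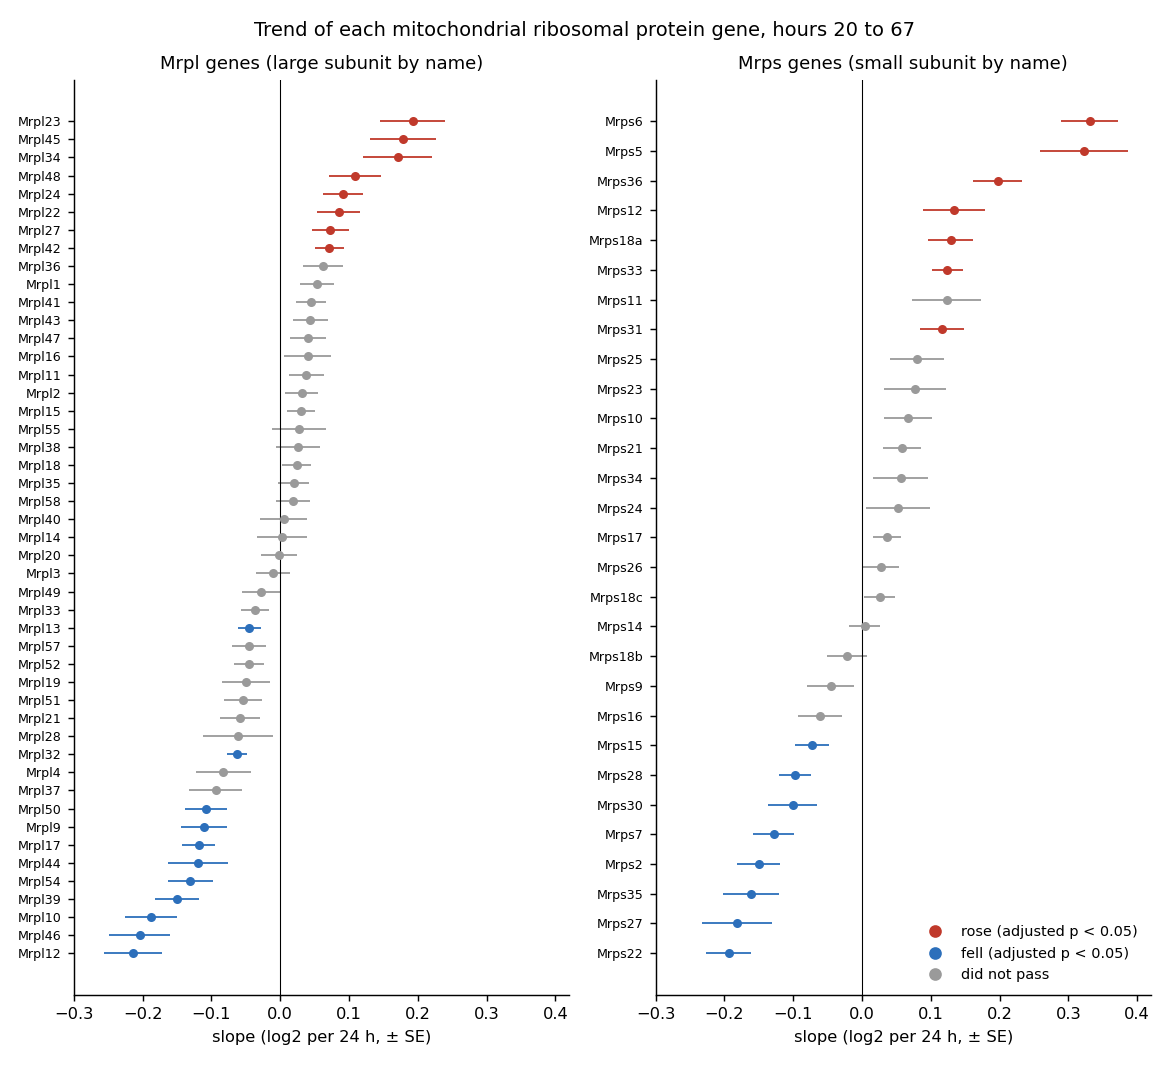
Slope of every gene in log2 per 24 h, with bars of 1 standard error, for the 47 Mrpl genes (left) and the 29 Mrps genes (right). Red points rose and blue points fell past the limma test at an adjusted p of 0.05, and grey points did not pass. Mrps6 and Mrps5 stand apart at the top of the right panel.

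Mrps6, which encodes a small subunit protein with a bacterial counterpart, had the largest rise. Its log2 value was 17.06 at the lowest, 17.74 at the median and 17.88 at the highest in the second day, against 16.74, 17.48 and 17.72 in the first. The days overlapped, with first-day values of 17.67 at hour 39 and 17.72 at hour 42 above second-day values of 17.60 at hour 44 and 17.59 at hour 54. The 3 lowest values, 17.06 at hour 45, 16.98 at hour 36 and 16.74 at hour 20, were on the arrays with the largest β-actin differences. Its slope was 0.33 ± 0.04 (SE) per 24 h (limma, adjusted p = 9.31e-09), or 1.57-fold along the fitted line across the hours sampled. Without the 10 arrays of uneven β-actin the slope was 0.26, and with that difference as a covariate 0.26.

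Mrps5, whose protein lies where messenger RNA enters the small subunit, ran at 12.60, 13.14 and 13.41 (lowest, median, highest) in the second day, against 11.94, 12.88 and 13.22 in the first. Its slope was 0.32 ± 0.06 per 24 h (limma, adjusted p = 6.42e-05), with hours 36 and 20 lowest, and it was 0.21 without the 10 arrays of uneven β-actin. Other probe sets for Mrps5 did not follow it. The next brightest had a slope of -0.11 ± 0.05 (limma, adjusted p = 0.0695), another had 0.17 ± 0.08 (adjusted p = 0.0888), and the mean over all of its probe sets had 0.07. Of the probe sets of Mrps5, only the brightest passed the trend test, and 2 of the others lay near the floor of the values.

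Mrps33 rose and did not pass the test of association with the β-actin difference. Its values were 15.70, 15.85 and 16.10 in the second day, against 15.50, 15.72 and 15.89 in the first, so that the days overlapped between 15.70 and 15.89. Its slope was 0.12 ± 0.02 per 24 h (limma, adjusted p = 1.98e-05), and its coefficient on that difference was 0.01 (adjusted p = 0.916). The highest values were 16.10, 15.99 and 15.98, at hours 52, 55 and 53, within the hours of high BioB, and with a term for those hours beside the β-actin covariate the slope was 0.09. Mrpl34 likewise rose, by 0.17 ± 0.05 per 24 h (limma, adjusted p = 0.00720), with a β-actin coefficient of 0.05 (adjusted p = 0.851). Mrpl23, a protein at the exit of the nascent chain tunnel, rose by 0.19 ± 0.05 (adjusted p = 0.00106), and Mrpl45, which links the ribosome to the inner membrane, by 0.18 ± 0.05 (adjusted p = 0.00289). Mrps36, the gene of the dehydrogenase complex, rose by 0.20 ± 0.04 (adjusted p = 1.13e-05).

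Mrpl12, the flexible stalk protein that recruits translation factors, had the largest fall. Its values were 15.33, 15.69 and 16.13 in the second day, against 15.64, 15.83 and 16.29 in the first. The lowest value was that of the last array, hour 67, and the 5 highest were at hours 36, 24, 20, 40 and 45, all of high β-actin difference, so that the days overlapped widely. The slope was -0.21 ± 0.04 per 24 h (limma, adjusted p = 5.70e-05), or 0.748-fold along the fitted line, and it was -0.11 without those 10 arrays. Mrpl10, the stalk base that holds Mrpl12, fell with it, by a slope of -0.19 ± 0.04 (adjusted p = 8.69e-05).

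Mrps22, a small subunit protein specific to mitochondria and mutated in a human mitochondrial disease, ran at 13.52, 13.71 and 13.86 in the second day, against 13.67, 13.85 and 14.25 in the first. Its slope was -0.19 ± 0.03 (limma, adjusted p = 5.24e-06), and -0.11 without the 10 arrays of uneven β-actin. Mrpl17 followed the other order on those arrays. The protein lies beside the nascent chain tunnel, and the gene's values were 16.02, 16.32 and 16.39 in the second day, against 16.25, 16.45 and 16.60 in the first. It was low at hours 45 and 67, and its slope was -0.12 ± 0.02 (limma, adjusted p = 7.01e-05) over all arrays and -0.14 without the 10. Its other probe sets lay near the floor of the values.

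The other falls among the 8 Mrpl and 8 Mrps genes with the smallest p-values were Mrpl46 at -0.20 ± 0.04, Mrpl39 at -0.15 ± 0.03, Mrps2 at -0.15 ± 0.03, Mrpl54 at -0.13 ± 0.03, Mrps7 at -0.13 ± 0.03, Mrps28 at -0.10 ± 0.02 and Mrpl32 at -0.06 ± 0.01 per 24 h, with adjusted p-values between 0.000162 and 0.00156 (limma). Mrpl32 is the ribosomal protein that the m-AAA protease of the inner membrane trims in the mouse before it is built in. The paralogs of the bacterial S18 protein differed in whether they passed. Mrps18a, the copy in the large subunit, rose by 0.13 ± 0.03 (adjusted p = 0.00162), whereas Mrps18b had -0.02 ± 0.03 (adjusted p = 0.522) and Mrps18c 0.03 ± 0.02 (adjusted p = 0.318), and the differences between the copies were not tested. Mrps30, the other Mrps protein of the large subunit, fell by 0.10 ± 0.04 on the log2 scale per 24 h (adjusted p = 0.0274). Without the 10 arrays of uneven β-actin its slope was -0.02, and leaving out hour 20 alone ended its call.

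**Figure D2:**
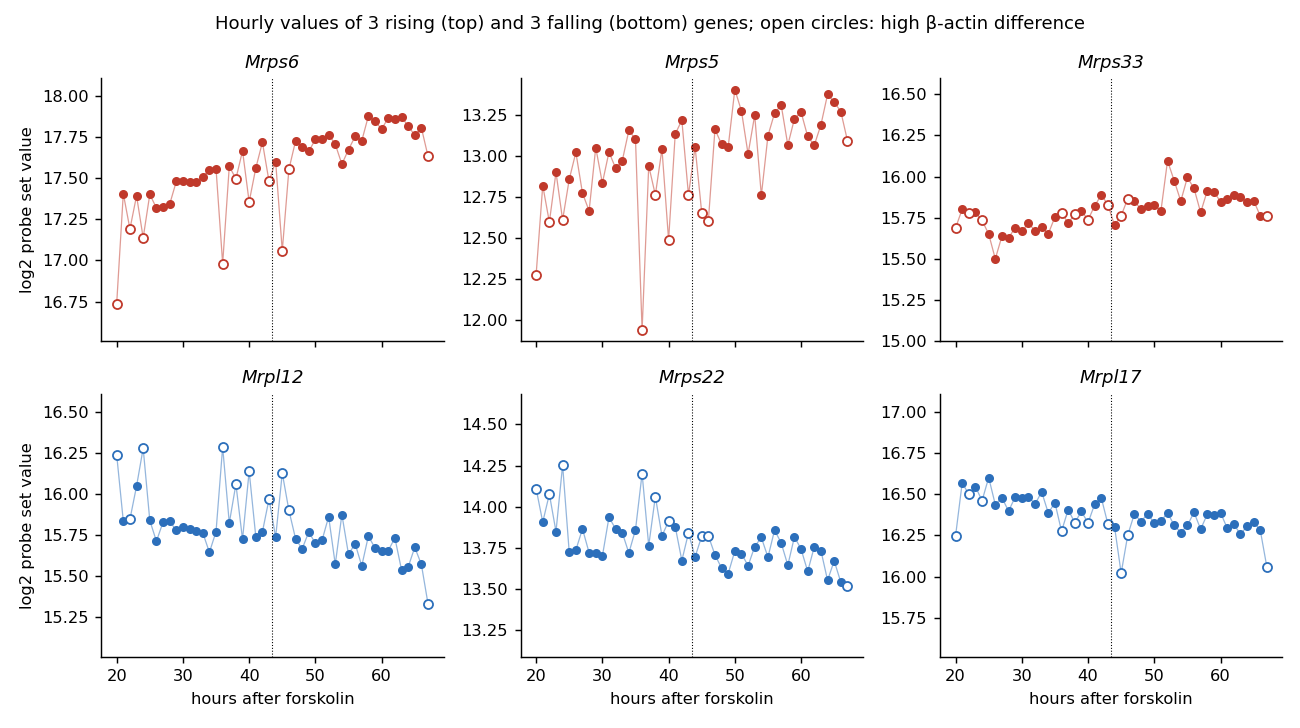
Log2 values of 3 genes that rose (top) and 3 that fell (bottom), 1 point per hourly array, with open circles for the 10 arrays of high β-actin difference and a dotted line between the first and the second day. Every panel spans the same log2 range. The lowest points of Mrps6 and Mrps5 and the highest of Mrpl12 and Mrps22 are open circles, but that of hour 67 is the lowest point of Mrpl12 and Mrps22, and the open circles of Mrps33 lie near their neighbours.

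Most genes of the group moved with the β-actin difference. In the fit with slope, 24 h wave and that difference, 39 of the 76 genes were lower (51.3%) and 20 were higher (26.3%) where the difference was large (limma, adjusted p under 0.05). Over all probe sets 16.6% were lower and 20.0% higher, and among probe sets above the median level 31.5% and 34.4%. Of the 15 genes that rose, 13 were lower with the difference and 0 higher. Of the 19 that fell, 3 were lower and 12 higher, and of the 42 that did not pass the trend test, 23 were lower and 8 higher. Mrps5 had the strongest coefficient, -0.62 ± 0.06 log2 per log2 unit of the difference. Arrays with a large difference were more frequent in the first day, as given above, and the genes were split by slopes fitted without the difference. The split and the counts of association within it are therefore not independent. Such counts were not made for all rising or falling probe sets. With the difference as a covariate 11 genes rose and 19 fell, with a term for hours 52 to 55 beside it 8 rose and 18 fell, and without the 10 arrays 19 rose and 17 fell. Of the 15 and 19 genes called over all arrays, 12 and 14 were called without those arrays.

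**Figure D3:**
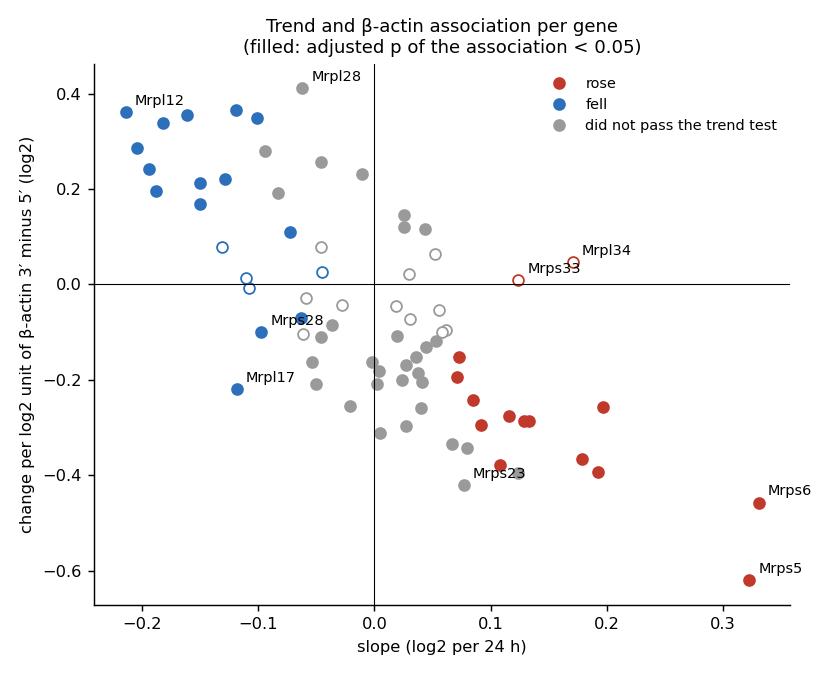
Slope in log2 per 24 h (x axis) against the change per log2 unit of the β-actin 3′ minus 5′ difference (y axis), 1 point per gene, from fits without and with that difference. Red genes rose, blue genes fell and grey genes did not pass the trend test, and filled points passed the test of the association. Of the red points, 13 are filled and lie below 0, and Mrps33 and Mrpl34 are open.

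Of the 34 calls of the trend, 9 were lost when some single array was left out, and hour 20 decided most of them. Without it 10 genes rose, since Mrpl22, Mrpl24, Mrpl27, Mrpl48 and Mrps12 were lost, and Mrpl44 and Mrps30 no longer fell. The call of Mrps15 was lost without hour 22, and that of Mrpl13 without hour 24, 36, 53 or 67. Through the 7 settings that dealt with array quality and scaling (the β-actin covariate, the arrays of high difference left out, a term for hours 52 to 55, both together, hours 20 to 25 left out, median centring and quantile normalization), 7 rises and 12 falls were called every time. The rises were Mrpl23, Mrpl34, Mrps5, Mrps6, Mrps18a, Mrps33 and Mrps36. The falls were Mrpl10, Mrpl12, Mrpl17, Mrpl32, Mrpl39, Mrpl46, Mrpl50, Mrps2, Mrps7, Mrps22, Mrps28 and Mrps35. Means over 6 h and means over all probe sets of a gene were not among those settings. With means over 6 h, which leave few values, the rises of Mrpl34, Mrps18a and Mrps33 were not called. Neither were the falls of Mrpl10, Mrpl12, Mrpl46, Mrpl50, Mrps7, Mrps22 and Mrps35. With the mean over all probe sets, the falls of Mrpl50 and Mrps2 were not called.

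Genes with several probe sets gave a check within the arrays. For 12 called genes there were 17 further probe sets above the median level, of which 11 had a slope of the same sign, 7 of them called, and 6 of the opposite sign, 0 of them called. The opposite ones belonged to Mrpl44, Mrpl50, Mrpl9, Mrps31 and Mrps5. For Mrpl9, the brightest probe set had a slope of -0.11 ± 0.03 and may match several genes, and the others had 0.01 ± 0.03 and 0.16 ± 0.08. In all, 8 of the 76 genes were read from a probe set of that kind, Mrpl9, Mrpl11, Mrpl15, Mrpl19, Mrpl37, Mrpl38, Mrps12 and Mrps24. A gene that did not pass could also have a dimmer probe set, above the median level, that was called. This held for Mrpl1, Mrpl3, Mrpl11, Mrpl15, Mrpl28, Mrpl49, Mrpl51, Mrpl52 and Mrps14, and not for other such genes. For Mrpl1 that slope was 0.32 ± 0.05 (limma, adjusted p = 2e-06), near that of Mrps6. For Mrps14 it was -0.14 ± 0.04 (adjusted p = 0.00986). Calls and the range of slopes therefore hold for the brightest probe sets only.

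A comparison of whole days, which assumes no straight line, gave 12 genes higher and 15 lower in the second day than in the first, all of them also called in the trend. With a term for hours 52 to 55, 7 were higher, since Mrpl34, Mrpl42, Mrpl45, Mrps12 and Mrps31 were lost. The shares over all probe sets were 12.6% higher and 13.8% lower, and among those above the median level 23.6% and 22.9%. Mrps6 was higher by 0.31 ± 0.05 (limma, adjusted p = 2.46e-06), and Mrpl12 was lower, by -0.19 ± 0.05 (adjusted p = 0.00165). For 0 of the 76 genes were the values of the days apart without overlap, and the share over all probe sets was not counted.

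Large and small subunit genes were then set side by side. Of the 47 Mrpl genes, 8 rose and 11 fell, with a median slope of 0.002 log2 per 24 h, and of the 29 Mrps genes, 7 rose and 8 fell, with a median slope of 0.04. With the β-actin covariate those medians were -0.02 and 0.01. Counted by where the protein sits, 9 of 49 large subunit genes rose and 12 fell, against 5 and 7 of 26 small subunit genes. Genes whose proteins are specific to mitochondria had 6 rises and 9 falls of 30, and those with a bacterial counterpart 8 and 10 of 45. Both directions were therefore present in each class, and the shares were within a few genes of each other. The Mrps slopes spread more widely, with an SD of 0.13 against 0.09 for Mrpl.

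Averaged over genes, both subunits moved little and together. The mean centred log2 value of the Mrpl genes was -0.007 ± 0.05 (SD over 24 arrays) in the second day and 0.007 ± 0.05 in the first, and that of the Mrps genes 0.01 ± 0.06 and -0.01 ± 0.05. The averages lay on the same side of 0 in 39 of 48 hours and were both lowest at hour 45, at -0.15 and -0.17, an array of high β-actin difference. Mrpl minus Mrps was -0.02 ± 0.02 in the second day and 0.02 ± 0.03 in the first, a shift of -0.04 log2. The 3 highest values of Mrpl minus Mrps, at hours 24 (0.07), 36 (0.06) and 22 (0.06), were on arrays of high β-actin difference. The next, at hour 25 (0.05), was not. The shift is described without a test, since each average rests on the chosen genes.

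**Figure D4:**
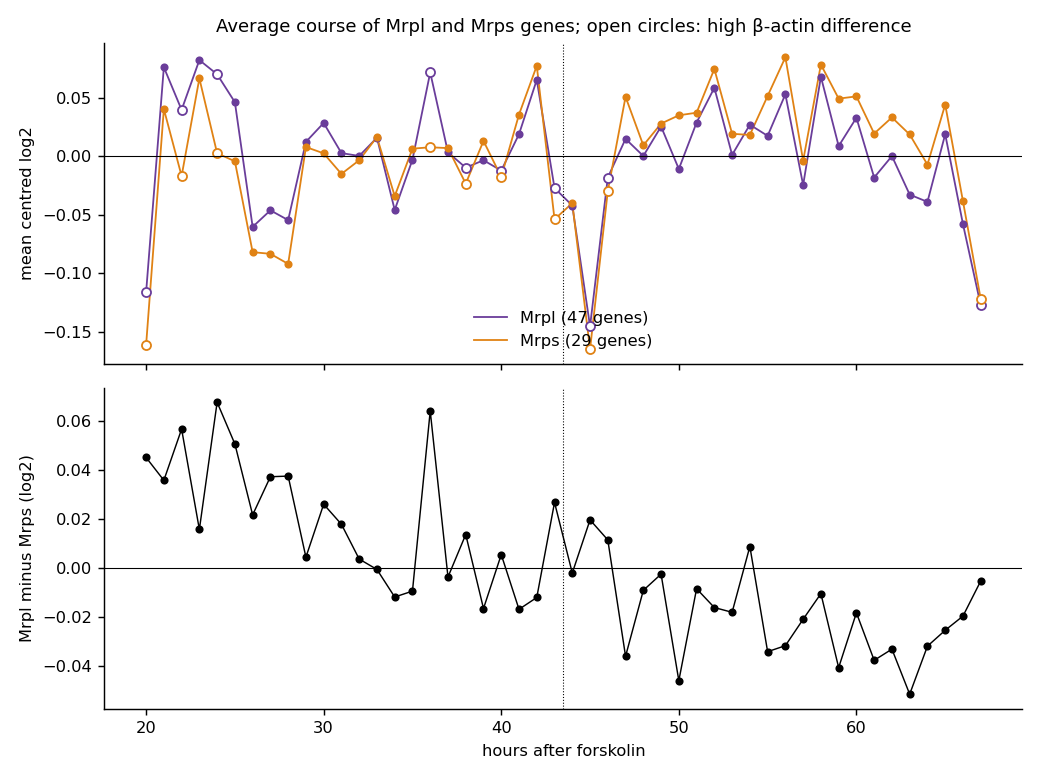
Mean centred log2 value of the 47 Mrpl and 29 Mrps genes by hour (top) and Mrpl minus Mrps (bottom), with a dotted line between the days. Open circles mark the arrays of high β-actin difference in the top panel only. The averages dip together at hours 20, 45 and 67, and the difference lies mostly below 0 in the second day and mostly above 0 in the first.

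Correlations between the courses of the genes were taken with the slopes left in. Likeness from hour to hour apart from the slope was not measured. Over 48 arrays, the median Pearson correlation between 2 genes was 0.21 over the whole group, 0.22 within Mrpl, 0.16 within Mrps and 0.20 between them, against -0.0007 over all pairs of probe sets above the median level. Among the 15 rising genes it was 0.69, among the 19 falling genes 0.44, and between a rising and a falling gene -0.39. These genes share the arrays and their quality, and the rule that split them used the same values, so the correlations are given as a description. The rising genes averaged lowest at hours 20 (-0.51) and 45 (-0.32), and the falling genes highest at hours 24 (0.30) and 36 (0.27), all arrays of high β-actin difference.

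The study asked which transcripts follow a daily rhythm. Of the 76 genes, 0 passed the 24 h cosine test of limma (18 had an unadjusted p under 0.05), against 0.293% of all probe sets. A cosine search over periods and Fisher's G-test, both with a q of 0.05, called 0 of 76 at about 24 h, against 0.182% of all. Singly and without adjustment, 13 genes had a p under 0.05 in the cosine search, 4 of them with a period between 20 and 30 h, and 14 in the G-test. Of the 14, only Mrpl20 had its G-test period at 24 h, and the others had it at 48 h, the length of the course. With the linear trend removed before the G-test, 2 genes had a p under 0.05 in it. Shares over all probe sets at these unadjusted thresholds were not counted, so the counts cannot be set against them. The smallest cosine p was that of Mrpl20, a large subunit protein with a bacterial counterpart, with an amplitude of 0.08 ± 0.02 log2 (SE) and a fitted peak at hour 31.9 (limma, p = 0.00111, adjusted p = 0.134). Mrpl45, Mrpl33 and Mrpl35 followed, with amplitudes of 0.12 ± 0.04, 0.05 ± 0.02 and 0.05 ± 0.02 and adjusted p-values between 0.274 and 0.308. The median amplitude of the group was 0.04, against 0.06 among probe sets above the median level. A p that misses the threshold does not show that these genes had no rhythm.

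The course changed between the days in 4 of the 76 genes (limma, test of the second-day slope minus the first-day slope). This was a smaller share than the 7.42% of all probe sets. The 4 were Mrpl genes, as were 47 of the 76, and the count ran from 2 to 27 with the processing. Mrpl33 had 0.20 ± 0.05 log2 per 24 h in the second day and -0.13 ± 0.05 in the first, a difference of 0.33 ± 0.06 (adjusted p = 4.66e-05). Its means over 6 h were 16.47, 16.44, 16.45 and 16.50 in the second day, against 16.61, 16.57, 16.45 and 16.40 in the first, so that the means became lower along the first day and changed little in the second, where the slope was fitted beside a 24 h wave. Mrpl41, a large subunit protein specific to mitochondria, had 0.22 ± 0.07 in the second day and -0.05 ± 0.07 in the first (difference 0.28 ± 0.07, adjusted p = 0.00796). Mrpl50 and Mrpl10 went the other way, with differences of -0.33 ± 0.10 (adjusted p = 0.0377) and -0.40 ± 0.13 (adjusted p = 0.0442). Both had their lowest value at hour 67, the last array. Leaving out single arrays kept the calls of Mrpl33 and Mrpl41 in every fit and ended that of Mrpl50 in 8 and that of Mrpl10 in 23 of 48. Without the 10 arrays of uneven β-actin only Mrpl33 of the 4 was called, with a difference of 0.31, and with arrays paired by hour of the cycle only Mrpl33 and Mrpl41.

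**Figure D5:**
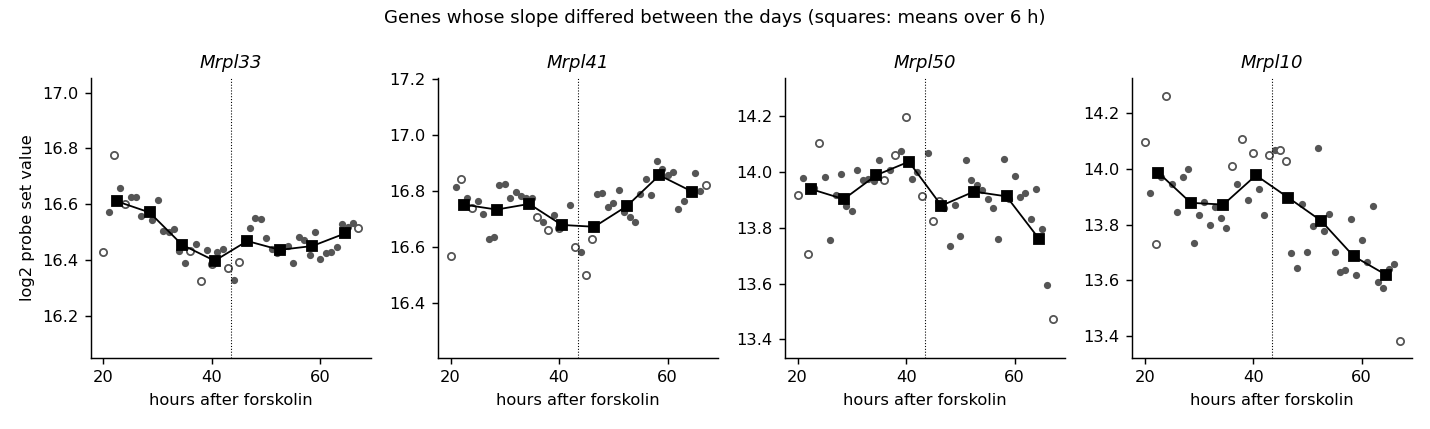
Log2 values by hour of the 4 genes whose slope differed between the days (small points, open for the 10 arrays of high β-actin difference), with squares for means over 6 h and a dotted line between the days. Every panel spans the same log2 range. The squares of Mrpl33 run downward in the first day and not in the second, and Mrpl50 and Mrpl10 end at their lowest values.

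The promoters were read to see what the genes share that expression did not choose. RefSeq windows of 250 bases before to 50 after the start site (GRCm38.p6) were matched for 67 of the 76 genes. Searched on both strands, the ETS core CCGGAAG, which GABP binds, was in 25 of 67 windows (37.3%) against 9.93% of 27025 genes with a window, the YY1 motif AAGATGGCG in 8 (11.9%) against 1.64%, and the NRF1 core GCATGCGC in 8 (11.9%) against 3.05%. The GC box GGGCGG was in 34 (50.7%) against 38.2%, CCAAT in 26 (38.8%) against 41.1%, and the clock's E-box CACGTG in 5 (7.46%) against 8.09%. By trend, the NRF1 core was in 1 of 15 rising, 5 of 15 falling and 2 of 37 other genes with a window, and the ETS core in 7, 3 and 15. A match is a description of the letters and no sign of binding, and these splits were not tested. On the arrays, Nrf1 had a slope of -0.01 ± 0.06 (limma, adjusted p = 0.868), Gabpa 0.05 ± 0.03 (adjusted p = 0.133) and Yy1 -0.15 ± 0.02 (adjusted p = 2.55e-08). The NRF1 matches of the genes past the trend test are shown with 30 bases on each side and the match in capitals, since the core was found mostly among the genes that fell. Mrpl10 lies at chr11:97041418-97041485, plus strand, Mrpl17 at chr7:105811061-105811128, minus strand, Mrpl32 at chr13:14613022-14613154, minus strand, Mrpl39 at chr16:84735330-84735399, minus strand and Mrpl9 at chr3:94443278-94443347, plus strand, all of which fell, and Mrpl22, which rose, at chr11:58171601-58171668, plus strand.
Mrpl10: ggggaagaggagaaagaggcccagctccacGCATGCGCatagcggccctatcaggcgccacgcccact
Mrpl17: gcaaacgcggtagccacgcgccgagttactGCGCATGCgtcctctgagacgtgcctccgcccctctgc
Mrpl32: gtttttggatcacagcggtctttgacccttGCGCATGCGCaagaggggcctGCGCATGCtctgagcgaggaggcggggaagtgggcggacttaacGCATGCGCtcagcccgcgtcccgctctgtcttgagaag
Mrpl39: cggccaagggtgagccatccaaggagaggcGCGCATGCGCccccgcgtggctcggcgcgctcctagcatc
Mrpl9: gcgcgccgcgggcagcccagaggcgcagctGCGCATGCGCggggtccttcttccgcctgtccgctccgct
Mrpl22: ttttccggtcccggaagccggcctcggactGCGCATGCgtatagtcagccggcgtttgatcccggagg

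The window of Mrpl32 held the core at 4 places that partly overlap, and those of Mrpl39 and Mrpl9 held it as a palindrome, read on both strands. The gene with the largest rise and the one with the smallest p among the falls had other motifs, shown in capitals in their whole windows at chr16:92058086-92058385, plus strand (Mrps6) and chr9:98601630-98601929, minus strand (Mrps22). Mrps6 had 4 GC boxes, the first 2 of them overlapping, and Mrps22 had 1 GC box and 1 ETS core.
Mrps6: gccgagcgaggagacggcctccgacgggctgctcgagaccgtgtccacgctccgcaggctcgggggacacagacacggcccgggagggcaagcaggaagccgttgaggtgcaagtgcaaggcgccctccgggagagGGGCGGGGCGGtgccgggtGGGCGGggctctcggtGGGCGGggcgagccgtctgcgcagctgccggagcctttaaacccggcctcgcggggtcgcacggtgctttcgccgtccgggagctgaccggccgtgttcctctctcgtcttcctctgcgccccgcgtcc
Mrps22: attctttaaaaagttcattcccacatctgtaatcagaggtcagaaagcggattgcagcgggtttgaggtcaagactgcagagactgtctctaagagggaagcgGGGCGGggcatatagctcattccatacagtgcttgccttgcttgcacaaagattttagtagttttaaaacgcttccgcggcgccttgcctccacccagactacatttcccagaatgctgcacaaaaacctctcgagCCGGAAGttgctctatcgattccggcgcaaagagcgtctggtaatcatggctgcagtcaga

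Some of these genes are placed head to head with a neighbour. Start sites on opposite strands within 300 bases were found for 20 of the 67, and the share over all genes was not counted. The pair within the group was Mrpl46 and Mrps11, 42 bases apart on chromosome 7, with slopes of opposite sign. Mrpl46, a protein of the large subunit's central protuberance, ran at 11.94, 12.37 and 12.63 in the second day, against 12.22, 12.53 and 13.06 in the first (slope -0.20 ± 0.04, limma, adjusted p = 0.000229). Mrps11, a small subunit protein with a bacterial counterpart, ran at 13.69, 14.35 and 14.60 in the second day, against 13.67, 14.29 and 14.57 in the first (slope 0.12 ± 0.05, adjusted p = 0.0563). The days overlapped in both, and on the array of hour 24, of high β-actin difference, Mrpl46 had its highest value (13.06) and Mrps11 one of its lowest (13.77). The Mrps11 window at chr7:78782881-78783180, plus strand covers both start sites, with the YY1 motif and the GC box in capitals, because it is the one stretch that 2 genes of the group share.
Mrps11: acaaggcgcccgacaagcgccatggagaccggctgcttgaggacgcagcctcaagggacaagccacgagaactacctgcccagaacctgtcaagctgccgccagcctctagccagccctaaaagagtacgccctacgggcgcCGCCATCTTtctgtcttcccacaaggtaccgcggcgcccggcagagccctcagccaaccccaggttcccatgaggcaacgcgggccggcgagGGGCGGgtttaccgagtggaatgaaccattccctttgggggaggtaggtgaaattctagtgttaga

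The signs of the slopes of head-to-head neighbours are given as a description, since such pairs were not counted over all genes. Several of these slopes were smaller than their standard error, such as 0.002 ± 0.04 for Mrpl14. Of 18 genes with such a neighbour above the median level, Mrpl46 and Mrps11 each counted once, the slopes had the same sign in 5, and in the 1 pair where both passed the trend test they were opposite. That was Mrpl27, which rose by 0.07 ± 0.03, and Eme1, 48 bases away, which had -0.75 ± 0.12 (limma, adjusted p-values 0.0320 and 2.51e-06). Mrpl27's call was lost when hour 20 was left out.

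Other genes of mitochondrial translation were counted in the same fits. Of 5 measured ribosome parts with other names 0 rose and 2 fell (40.0%). Dap3, a GTP-binding protein of the small subunit, had a slope of -0.03 ± 0.02 (limma, adjusted p = 0.0996). Of 38 assembly and translation factors 4 rose and 6 fell (10.5% and 15.8%), with a median slope of -0.01. Noa1, a GTPase needed to build the ribosome, fell, with a slope of -0.17 ± 0.02 (adjusted p = 3.77e-11). Of 13 genes of mitochondrial DNA expression 2 rose and 5 fell (15.4% and 38.5%, median -0.08). Of 16 mitochondrial aminoacyl-tRNA synthetases 1 rose and 8 fell (6.25% and 50.0%, median -0.15). Of 11 genes of mitochondrial protein quality control 2 rose and 2 fell (18.2% each, median -0.04). Hspd1, the chaperone Hsp60, had a slope of -0.16 ± 0.02 (limma, adjusted p = 7.86e-12). Of 14 regulators of mitochondrial genes 3 rose and 3 fell (21.4% each, median -0.01). Among these regulators, 2 had slopes beyond the range of the mitochondrial ribosomal protein genes. Ppargc1a, the coactivator PGC-1α that drives genes of mitochondria, was at 15.10 ± 0.21 (SD) in the second day and 14.18 ± 0.46 in the first, and rose by 0.93 ± 0.04 per 24 h (limma, adjusted p = 4.48e-22). Myc, a growth factor-induced transcription factor, was at 14.25 ± 0.31 in the second day and 14.99 ± 0.32 in the first, with a slope of -0.76 ± 0.06 (adjusted p = 7.24e-15).

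Set beside the proteins that depend on this ribosome and the ribosome of the cytosol, the group lay between in its shares of calls. Of 74 nuclear-encoded subunits of oxidative phosphorylation 21 rose and 6 fell (28.4% and 8.11%, median slope 0.02), and of 42 cytosolic ribosomal proteins 3 rose and 14 fell (7.14% and 33.3%, median -0.01), whereas the mitochondrial ribosomal protein genes had 19.7% and 25.0%. The differences between these lists were not tested.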

How the data were processed

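RNA from forskolin-treated NIH3T3 cells, 1 culture sample per hour from hour 20 to hour 67, was hybridised to Affymetrix mouse genome arrays. The deposited values were linear probe set intensities, which the authors had corrected for background and put on a common scale. The study's methods name GCRMA, whereas the processing notes name MAS5 only; no version is given. Such normalization takes most probe sets as stable, and 3′ probe sets read partly degraded RNA unevenly. Values were taken to log2 with no constant added, and no probe set was filtered. The number of arrays limits the precision. Slopes, days (hours 44 to 67 minus 20 to 43), 24 h cosines and slope differences were fitted with limma 3.58.1 (R 4.3.3) on all 48 arrays, with Benjamini-Hochberg adjustment over 45037 probe sets. COSOPT is not installed, so a cosine search (periods of 6 to 30 h) against 200000 Gaussian series stood in for it, beside Fisher's G-test, with Storey q-values. The slope and 24 h cosine of the main fit, the cosine search and the G-test were tried on simulated data, and the other fits were not. The text names up to 8 Mrpl and 8 Mrps genes with the smallest slope p, 4 each by cosine and slope difference, the Mrps18 paralogs, Mrps30, genes whose probe sets disagree, and 4 pathway genes with Dap3; Mrps11, Eme1, Nrf1, Gabpa and Yy1 were added after their values were seen, as were the other genes named as called, lost or kept. The members and lists were chosen with earlier results of these data known. Alternatives were other scalings, the mean over probe sets, only bright probe sets, array quality terms, arrays left out, 6 h means and a block by hour of the cycle.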

Additional observations from a re-analysis of the deposited data

Results flagged for a closer look

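The 4 genes whose slope differed between the days by limma's test of the interaction were flagged, though their share was smaller than that over all probe sets. The second-day slope minus the first-day slope was 0.3308 log2 per 24 h for Mrpl33 and 0.2759 for Mrpl41. It was -0.3282 for Mrpl50 and -0.3993 for Mrpl10. A second probe set of Mrpl50 had a slope of 0.06 ± 0.04 over the whole course, against -0.11 ± 0.03 for the one described, and with the mean over all probe sets of a gene, dim ones included, the difference between the days was 0.17 for Mrpl33, 0.14 for Mrpl41 and -0.19 for Mrpl50. Without the 10 arrays of uneven β-actin that of Mrpl10 was -0.20.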

How the results depend on the processing

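Directions of the named genes held in most alternatives: of their values other than the main ones, 314 kept side and direction, 40 no longer passed, 7 newly passed and 1 moved. Those that changed sign were the slopes of Mrpl20 (0.0016 with median centring, 0.0064 without hours 20 to 25), Mrpl35 (-0.0056 with β-actin covariate and the term for hours 52 to 55), Mrpl9 (0.0194) and Mrps31 (-0.0117), the last 2 as means over all probe sets. With the term for hours 52 to 55 alone, 7 genes were higher in the second day. With both terms, an alternative added after seeing the data, 8 rose, 7 were higher in the second day and 15 changed slope. The count of slope changes was the least stable: 13 with the β-actin covariate, 2 with quantile normalization, 2 without the 10 arrays of uneven β-actin, 8 over bright probe sets only and 27 without hours 20 to 25, against 4; the cause was not tested. With means over 6 h, which leave few values per gene, 5 rose, 6 fell, 1 was higher and 0 were lower in the second day, and no interaction was fitted. Leaving out each array in turn gave 10 to 20 rising, 17 to 20 falling, 9 to 16 higher, 14 to 16 lower, 0 to 1 with a 24 h cosine (1 without hour 21 or hour 36) and 2 to 10 with a slope change (outside 1.5 times the count of 4 without hours 20, 21, 22, 26, 40 or 43). A replicate block by hour of the cycle pairs the 2 days by design only and gave 10 higher and 14 lower in the second day, without Mrpl42, Mrpl45 and Mrps27, and, added after seeing the data, 2 slope changes, without Mrpl10 and Mrpl50. The 24 h counts were 0 under every other setting. No culture was replicated, and probe set values say nothing of protein or of translation.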
